A study of Arabidopsis thaliana with 4 samples.

Results

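The 84 genes described here are nuclear genes of Arabidopsis thaliana whose transcript signal lay at least 1 log2 unit, a doubling, higher in css1 mutant seedlings than in wild type on every array. They were selected on the measured values themselves: for each probe set, the gap is the lower of the css1 values minus the higher of the wild-type values, and a gap of at least 1 was required. Of 13367 probe sets that name 1 nuclear gene, 112 (0.838%) had such a gap, and 28 of these were set aside by name. The names to be left out were fixed by the choice. They cover families, such as UDP-glycosyltransferases, cytochromes P450 and plant defensins, and also single genes. The same gap in the other direction, lower in css1, was seen for 51 probe sets. Because the choice used all 4 arrays, the differences of the 84 genes are given as a description, without tests.

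Seedlings were taken whole at 9 days, from wild type (Columbia accession) and from the css1 mutant, with 2 samples labelled as biological replicates per genotype, each on its own Affymetrix array. The labels do not say whether these came from separate cultures, so p-values measure the spread between these samples only. All seedlings grew in continuous light on B5 agar with 2% sucrose. The mutant has been described as affected in a nuclear maturase-type gene that acts in splicing of a mitochondrial transcript, but the labels do not name the gene, and only this 1 mutant line was compared. Values are RMA log2 signals, array medians lay between 6.32 and 6.37, and precision is limited by having 2 arrays per genotype. In whole seedlings, a change in the share of a cell type and a change in RNA per cell cannot be told apart. Of the organ markers looked for, 1 of 16 for shoot and 3 of 17 for root were measured by a named probe set, and none of those for seed and embryo, pollen and flower, or senescence. The shoot marker RCA, for Rubisco activase, had 13.7 and 13.7 in wild type and 13.5 and 13.5 in css1. The root markers EXPA7, EXPA18 and AT3G54580 differed by −0.33 to −0.51, which is lower in css1 for each of the 3. EXPA7 and EXPA18 are known from root hairs, so these markers do not stand for the whole root. The share of root tissue was not tested.

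Plants that lose mitochondrial respiratory capacity are known to signal to the nucleus and to change the expression of stress, detoxification and defence genes. The 84 genes cover the pectin-rich cell wall, carbohydrate-binding lectins, lipid-transfer proteins, vacuolar proteases, proteins typical of maturing seeds, and enzymes that oxidise or conjugate small molecules. The gene tables give 14 of the 84 a symbol other than the locus number. For the other 70, family roles are background knowledge about the locus and were read from the tables only where a synonym gives one.

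The 84 genes had wild-type means from 2.63 to 10.4 with a median of 5.78, beside a median of 5.97 over all 13367 probe sets. Their css1 means ran from 4.36 to 11.7 with a median of 7.59. The difference, css1 minus wild type, ran from 1.08 to 3.42 with a median of 1.64, and was at least 2 for 20 genes and at least 1.5 for 53. Over all 13367 probe sets the median difference was −0.02. A wild-type mean below 4.30, the 25th percentile of the signal of all probe sets, is called low here, and 12 of the 84 genes (14.3%) were low in this sense, against 30.03% of the 13367. No fold is given for those 12, since signals near the floor of an array compress differences.

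**Figure D1:**
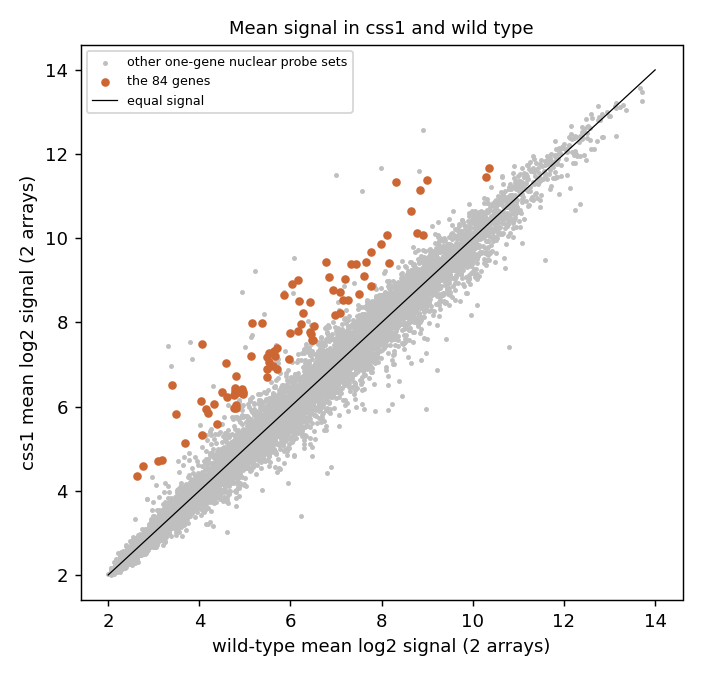
Mean css1 log2 signal over 2 arrays (y axis) against mean wild-type log2 signal over 2 arrays (x axis) for 13367 one-gene nuclear probe sets, with the 84 genes in orange and the line of equal signal in black. The 84 genes lie above the line over most of the range, from a wild-type mean of 2.63 to one of 10.4.

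**Figure D2:**
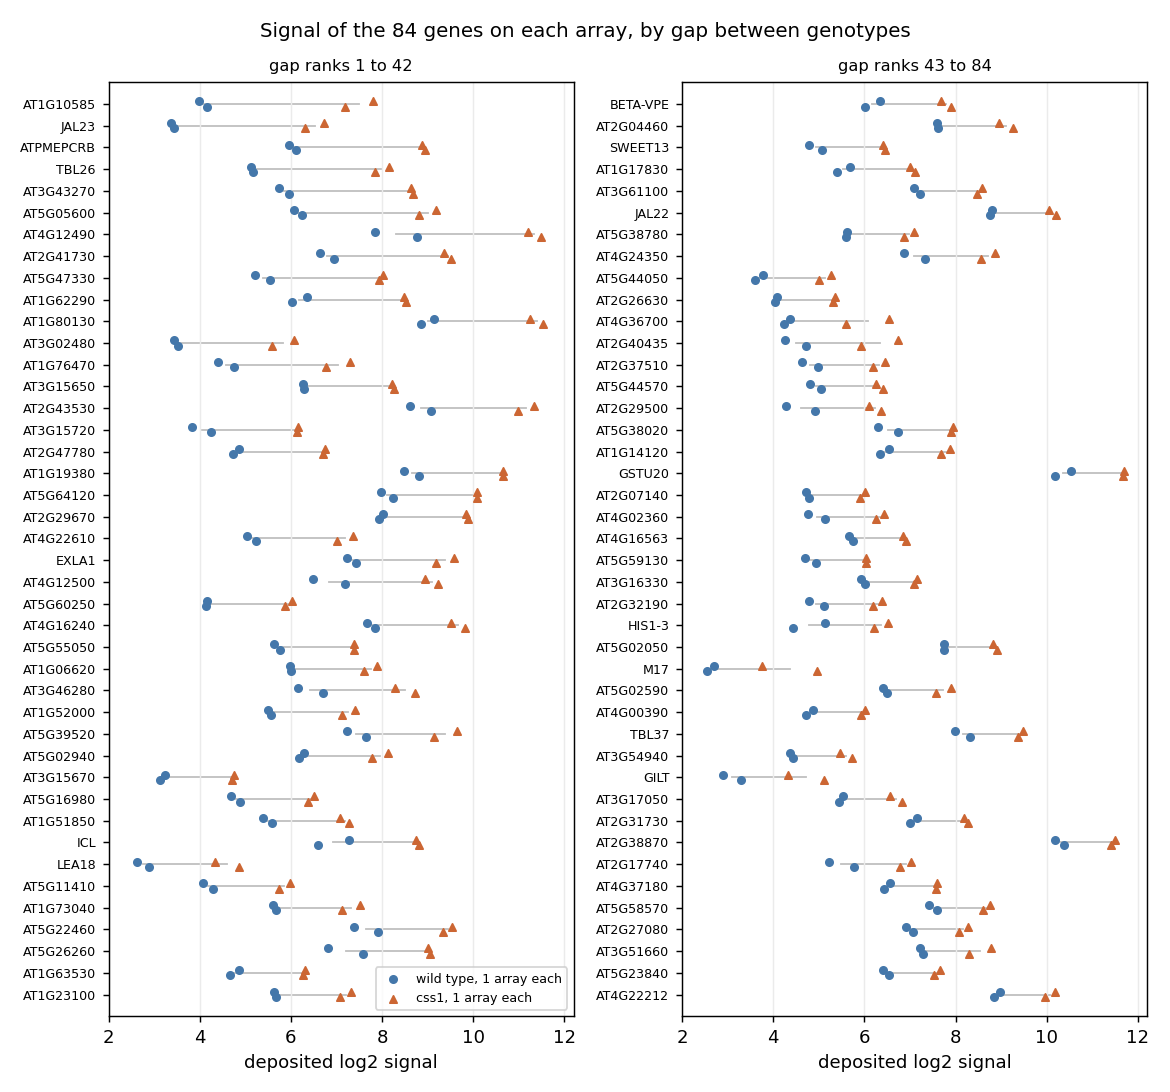
Deposited log2 signal of each of the 84 genes on each of the 4 arrays (x axis), ordered by gap (y axis), with wild-type arrays as circles, css1 arrays as triangles and a line joining the genotype means. The triangles lie at least 1 unit to the right of the circles for every gene, as the choice requires, and the distance between arrays of 1 genotype is widest for M17.

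Genes of the cell wall held 3 of the 5 largest gaps. ATPMEPCRB, listed also as pectin methylesterase 41, belongs to the enzymes that remove methyl groups from wall pectin. Its wild-type signals were 6.12 and 5.96, and its css1 signals were 8.94 and 8.88, a 7.29-fold difference. AT3G43270, of the same enzyme family, had 5.97 and 5.74 in wild type against 8.67 and 8.63 in css1, a 6.95-fold difference. The css1 arrays thus agreed within 0.1 log2 units for both esterase genes. AT3G15720, of the polygalacturonase family that cuts demethylated pectin, went from a low 4.24 and 3.84 in wild type to 6.12 and 6.15 in css1.

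TBL26 and TBL37 belong to the trichome birefringence-like family, whose members transfer acetyl groups to wall polysaccharides. TBL26 had 5.16 and 5.13 in wild type and 7.84 and 8.15 in css1, 7.21-fold higher. TBL37 had 8.32 and 7.99 in wild type and 9.36 and 9.47 in css1, 2.40-fold higher. The 2 genes thus differed in the size of the difference, while its direction was fixed by the choice. EXLA1, for an expansin-like protein of the wall, had 7.43 and 7.23 against 9.18 and 9.57 (4.13-fold). AT5G64120, listed also as peroxidase 71, of the secreted peroxidases that cross-link wall polymers, had 8.25 and 7.97 against 10.07 and 10.08 (3.91-fold). Over the 7 wall genes the median difference was 2.09, beside 1.64 for the 84 genes.

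For 4 of the wall families, the other loci that the tables name were looked at. In the limma fit across 22746 probe sets, 3559 (15.6%) were called at a threshold of 0.05 on the Benjamini-Hochberg adjusted p. Of these, 1736 (7.63% of all) were higher in css1 and 1823 were lower. Of 24 measured trichome birefringence-like genes, 22 were not among the 84, since none of these had a gap of at least 1. None of the 22 was called higher. Called lower were 2: TBL36, with 9.77 and 10.1 in wild type and 8.89 and 9.22 in css1 (−0.85, limma adjusted p = 0.0201), and TBL34 (−0.43, limma adjusted p = 0.0395). Without css1 replicate 1 the adjusted p was 0.107 for TBL36 and 0.159 for TBL34, without css1 replicate 2 it was 0.0619 and 0.213, without wild type replicate 2 that of TBL36 was 0.0632, and without wild type replicate 1 that of TBL34 was 0.0923. The median difference over the 24 genes was −0.13.

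For the families in this paragraph, the choice was made after the values were seen. The tables name 4 measured genes as pectin methylesterases, a list that holds ATPMEPCRB but not AT3G43270, whose family is background knowledge. Among the other 3, PME61 was the one called, and it fell (−0.82, limma adjusted p = 0.0118; 0.0755 without css1 replicate 1 and 0.0900 without css1 replicate 2). Of 5 expansin-like genes, EXLA2 and EXLA3 differed by 0.39 and 0.24 and did not pass (limma adjusted p = 0.103 and 0.234), and EXLB1 fell by 0.84 (limma adjusted p = 0.0265; 0.143 without css1 replicate 1 and 0.112 without css1 replicate 2). Of 6 class III peroxidases so named, AT5G64120 was chosen for being higher, so its direction is no test. None of the other 5 passed, and the highest of these, PRX52, had a difference of 0.61 (limma adjusted p = 0.0962).

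The lectins are proteins that bind sugar chains, and the jacalin-related ones are known in Arabidopsis as components of complexes around myrosinases. JAL23 had 3.43 and 3.38 in wild type, near the floor, and 6.32 and 6.73 in css1, a difference of 3.12, the second largest among the 84. JAL22, its near neighbour on chromosome 2, had 8.77 and 8.79 in wild type and 10.19 and 10.05 in css1 (2.54-fold). The wild-type arrays of both genes lay within 0.05 of each other. AT1G52000 had 5.56 and 5.51 against 7.11 and 7.41 (3.32-fold), and AT1G73040 had 5.68 and 5.62 against 7.12 and 7.52 (3.18-fold). Both belong to the jacalin-type family as background. The tables name 4 measured genes as jacalin-related, and 2 of these, JAL22 and JAL23, were chosen for being higher, so their direction is no test. The other two both passed as higher: JAL33, with 10.7 and 10.6 against 11.5 and 11.4 (0.83, limma adjusted p = 0.00544), and JAL34, with 10.35 and 10.29 against 10.99 and 10.85 (0.60, limma adjusted p = 0.0145). Neither call held without css1 replicate 1, where the adjusted p was 0.0518 and 0.102, or without css1 replicate 2, where it was 0.0509 and 0.0768, with a difference of at least 0.53 for JAL34 and 0.79 for JAL33 under every alternative run.

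Lipid-transfer-type proteins are small secreted proteins with a lipid-binding cavity, several of them known from defence signalling. AT4G12490 had 8.76 and 7.85 in wild type and 11.48 and 11.20 in css1, and its 8.20-fold difference was the largest among the genes that were not low in wild type. Its wild-type arrays lay 0.90 apart, the widest wild-type distance among the 84. AT4G12500, from the same cluster, had 7.19 and 6.48 against 9.23 and 8.94 (4.75-fold), and here too wild type replicate 1 was the higher wild-type array. AT4G22610 had 5.23 and 5.04 against 7.02 and 7.37 (4.17-fold), and AT5G23840, for a lipid-recognition protein, had 6.53 and 6.401 against 7.53 and 7.66 (2.18-fold).

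Enzymes that cut ester bonds formed another set of 4. The alpha/beta hydrolase gene AT5G47330 had 5.55 and 5.22 in wild type and 7.93 and 8.03 in css1 (6.03-fold). For AT3G15650 the values were 6.29 and 6.25 against 8.26 and 8.21 (3.90-fold), and for AT5G22460 they were 7.91 and 7.39 against 9.34 and 9.54 (3.46-fold). AT5G55050, for a GDSL-type lipase, had 5.76 and 5.63 against 7.38 and 7.39 (3.23-fold). Of these, AT5G22460 had the widest distance between its wild-type arrays, 0.52.

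Proteins typical of maturing seeds and of drying tissue included late embryogenesis abundant proteins, which protect cell contents during water loss. AT3G02480 had 3.52 and 3.44 in wild type and 5.59 and 6.07 in css1. AT3G15670 had 3.14 and 3.23 against 4.72 and 4.76, and LEA18 had 2.88 and 2.63 against 4.87 and 4.33. M17 had 2.56 and 2.70 against 4.96 and 3.76. All 4 of these genes were low in wild type. AT4G36700, of the cupin family that holds seed storage proteins, had 4.25 and 4.38 against 5.60 and 6.54 (3.38-fold). AT2G47780, of the rubber elongation factor family found on lipid droplets, had 4.73 and 4.87 against 6.71 and 6.75 (3.82-fold).

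The seed-type genes differed in how far apart their css1 arrays lay. For AT3G15670 and AT2G47780 the distance was 0.041 and 0.048. M17 had 1.20 log2 units between its css1 arrays, with replicate 1 higher, and AT4G36700 had 0.95, with replicate 2 higher. The 2 css1 arrays thus did not order M17 and AT4G36700 the same way. Other genes listed by the tables as late embryogenesis abundant, a family chosen after its values were seen, were AtLEA4-1 with 3.73 and 3.35 against 4.83 and 4.57 (1.16, limma adjusted p = 0.0107) and LEA4-5 with 4.07 and 4.41 against 5.26 and 5.53 (1.15, limma adjusted p = 0.00934). Leaving out css1 replicate 2 ended these calls (adjusted p = 0.0509 and 0.0694), and that of AtLEA4-1 also ended without css1 replicate 1 (adjusted p = 0.0693). AT2G46140 (−0.27, limma adjusted p = 0.279) and AT2G44060 (−0.03, limma adjusted p = 0.867), named late embryogenesis abundant as well, did not pass. Seed storage and oil body markers were not measured by a named probe set, so the presence of seed-stage tissue was not tested.

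Proteases and vacuolar enzymes made up 6 genes. AT1G62290, for an aspartic protease with a saposin-like insert, had 6.02 and 6.36 in wild type and 8.53 and 8.49 in css1 (5.01-fold). BETA-VPE, a vacuolar processing enzyme best known for maturing seed proteins, had 6.01 and 6.33 against 7.89 and 7.69 (3.07-fold). GILT, for a thiol reductase named after its lysosomal counterpart, had a low 3.28 and 2.90 against 5.11 and 4.32. Each of these genes was separated between genotypes, as the choice requires, but the css1 arrays of GILT lay 0.79 apart. The papain-type protease gene AT3G54940 (2.29-fold), the subtilisin-type gene AT5G59130 (2.32-fold) and the aspartic protease gene AT4G16563 (2.26-fold) had smaller differences.

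Of the 3 other vacuolar processing enzymes measured, 1 passed. GAMMA-VPE, the form known from vegetative organs, had 12.18 and 12.29 in wild type and 10.61 and 10.73 in css1 and fell by 1.57 (limma adjusted p = 0.00137). This call held in every alternative run, with adjusted p from 0.000641 to 0.0282. ALPHA-VPE, also a vegetative form, differed by −0.36 (limma adjusted p = 0.174) and DELTA-VPE by 0.30 at a low signal (limma adjusted p = 0.203). This family was chosen after its values were seen.

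**Figure D3:**
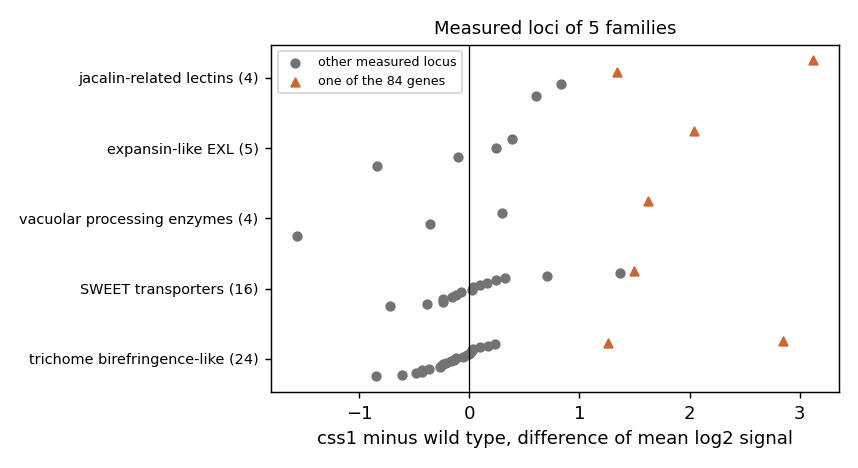
Difference of mean log2 signal, css1 minus wild type (x axis), for each measured locus that symbols or synonyms place in 5 families (y axis, number of loci in brackets), with the genes among the 84 as triangles and the other loci as circles. Loci whose family is background knowledge are not shown. The 4 jacalin-related lectins all lie above 0, 2 of them by the choice. BETA-VPE at 1.62, above 0 by the choice, and GAMMA-VPE at −1.57 lie on opposite sides. Most SWEET and trichome birefringence-like loci lie near 0.

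A set of 10 of the 84 held enzymes that oxidise, reduce, conjugate or otherwise convert small molecules, together with an efflux carrier. AT5G05600, of the 2-oxoglutarate-dependent oxygenases that hydroxylate jasmonate, had 6.25 and 6.07 in wild type and 8.82 and 9.18 in css1 (7.16-fold). AT1G06620 (5.997 and 5.987 against 7.61 and 7.88) and AT1G14120 (6.33 and 6.54 against 7.69 and 7.87) belong to the same superfamily and differed 3.37-fold and 2.54-fold. AT1G76470, for a reductase of the cinnamoyl-CoA reductase type, had 4.75 and 4.41 against 6.77 and 7.30 (5.47-fold). AT5G16980, for an alkenal reductase-type enzyme that would act on reactive carbonyls, had 4.89 and 4.68 against 6.38 and 6.50 (3.15-fold).

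GSTU20, a tau class glutathione transferase, had 10.2 and 10.5 in wild type and 11.7 and 11.7 in css1 (2.50-fold). Symbols and synonyms gave 13 measured glutathione transferases, a family chosen after its values were seen, and loci without such a name were not counted. Of the 13, GSTU20 and GSTU25 met the gap of the choice, GSTU25 being set aside by name, so their direction is no test. Among the other 11, none was called higher, and GSTU28 (−0.80, limma adjusted p = 0.0101) and GSTU22 (−0.80, limma adjusted p = 0.0177) fell. With css1 replicate 1 left out, those 2 falls no longer passed (adjusted p = 0.0633 and 0.0953), nor did they with css1 replicate 2 left out (adjusted p = 0.0853 and 0.119). AT5G44050, for a MATE-type efflux carrier, had a low 3.61 and 3.77 against 4.997 and 5.277. The methyltransferase genes AT5G38780 (2.58-fold) and AT5G38020 (2.64-fold) and the tautomerase gene AT3G51660 (2.43-fold) completed the set.

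Transport and central metabolism were represented by SWEET13, ICL, AT4G24350 and AT5G02940. SWEET13, an exporter of sucrose from cells, had 5.06 and 4.80 in wild type and 6.458 and 6.401 in css1 (2.83-fold). ICL encodes isocitrate lyase of the glyoxylate cycle, which lets germinating seedlings turn stored lipid into sugar, and it had 6.601 and 7.264 against 8.81 and 8.74 (3.59-fold). The wild-type arrays of ICL lay 0.66 apart. Of 16 measured SWEET genes, chosen as a family after their values were seen, SAG29, which was not among the 84, was called higher, with 5.68 and 5.39 against 6.65 and 7.15 (1.37, limma adjusted p = 0.0109; 0.0518 without css1 replicate 2). SWEET10, next to SWEET13 on the chromosome by locus number, did not pass (0.71, limma adjusted p = 0.0540; 0.0430 without css1 replicate 1). SWEET2 fell by 0.72 (limma adjusted p = 0.00887; 0.0518 without css1 replicate 1 and 0.0806 without css1 replicate 2). AT5G02940, for an ion channel-type membrane protein, differed 3.302-fold and AT4G24350, of the nucleoside phosphorylase superfamily, 3.07-fold.

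Regulators and nucleic acid-binding proteins were 7 genes. AT1G10585, for a basic helix-loop-helix factor, had the largest gap and the largest difference of the 84, with a low 4.15 and 3.98 in wild type and 7.18 and 7.80 in css1, a difference of 3.42. AT2G31730, another gene of that class, had 7.01 and 7.15 against 8.26 and 8.18 (2.21-fold). HIS1-3, a linker histone known to be induced by drought, had 4.43 and 5.13 against 6.21 and 6.51 (2.99-fold). Its wild-type arrays lay 0.71 apart, with replicate 2 higher. AT5G60250, for a RING-type zinc finger protein, had a low 4.14 and 4.16 against 5.87 and 6.01. The RNA-binding protein gene AT2G37510 (2.85-fold), the storekeeper-type gene AT4G00390 (2.25-fold) and the GARP-type factor gene AT4G37180 (2.12-fold) completed the set.

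Chaperones and mitochondrial proteins were few. AT1G23100, of the GroES type that caps chaperonin rings, had 5.68 and 5.63 in wild type and 7.07 and 7.33 in css1 (2.91-fold). AT2G29500, of the cytosolic small heat shock proteins, had 4.93 and 4.28 against 6.36 and 6.10 (3.09-fold). AT5G02050, of the mitochondrial glycoprotein family, had 7.76 and 7.76 against 8.91 and 8.82 (2.16-fold). The wild-type arrays of AT5G02050 were thus nearly identical, while those of AT2G29500 lay 0.65 apart.

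Protein kinases and small defence proteins gave 3 genes each. The leucine-rich repeat receptor kinase gene AT1G51850 had 5.58 and 5.38 in wild type and 7.28 and 7.07 in css1 (3.24-fold). AT3G46280, for a kinase-related protein, had 6.71 and 6.15 against 8.71 and 8.27 (4.18-fold), and the kinase gene AT5G11410 a low 4.29 and 4.07 against 5.74 and 5.97. Among the defence proteins, the knottin-type peptide gene AT2G43530 had 9.08 and 8.62 against 10.97 and 11.34 (4.95-fold). The protease inhibitor gene AT2G38870 (2.25-fold) and the defensin-like gene AT4G22212 (2.24-fold) had wild-type means of 10.3 and 8.90.

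**Figure D4:**
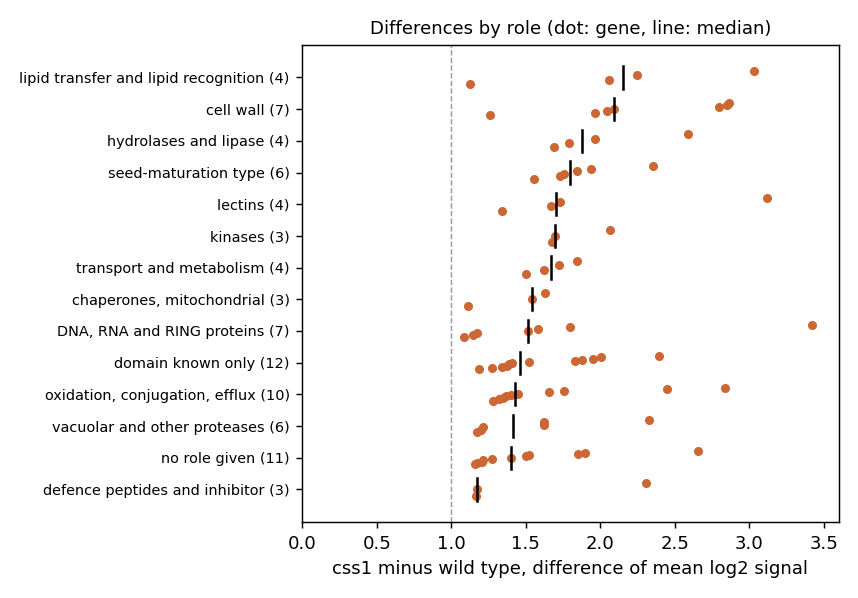
Difference of mean log2 signal, css1 minus wild type (x axis), for each of the 84 genes grouped by role (y axis, number of genes in brackets), with 1 dot per gene and a line at the group's median. Group medians run from 1.17 for the defence proteins to 2.15 for the lipid-binding proteins, and the dashed line marks a difference of 1, which every gene had to exceed.

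For 12 genes only a domain can be given, and for another 11 no role is given. Among the first, the tetratricopeptide-type genes were AT1G80130, with 8.85 and 9.15 in wild type and 11.5 and 11.2 in css1 (5.25-fold), AT2G29670 (3.67-fold) and AT5G02590 (2.42-fold). AT1G19380, with a domain of unknown function, had 8.81 and 8.49 against 10.65 and 10.66 (4.02-fold), and AT5G39520 (3.87-fold), AT1G17830 (2.87-fold) and AT4G02360 (2.61-fold) carry other such domains. AT5G26260, of the TRAF-like type, had 7.58 and 6.82 against 9.05 and 9.01 (3.56-fold). The rest were AT2G17740 (2.66-fold), with a C1 domain, AT3G61100 (2.59-fold), AT2G32190 (2.53-fold), of a cysteine-rich transmembrane type, and AT2G27080 (2.27-fold), of a hydroxyproline-rich type.

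Among the genes without a role, AT2G41730 had the largest difference, with 6.94 and 6.63 in wild type and 9.52 and 9.36 in css1 (6.31-fold). AT4G16240 (3.73-fold), AT2G40435 (3.601-fold), AT1G63530 (2.88-fold), AT5G44570 (2.64-fold), AT2G07140 (2.31-fold), AT5G58570 (2.25-fold) and AT3G16330 (2.23-fold) followed. The tables annotate 3 of the 84 loci as pseudogenes: AT2G04460, with 7.62 and 7.59 against 9.26 and 8.95 (2.83-fold), AT3G17050 (2.31-fold) and AT2G26630, whose wild-type signal was low. The probe sets of AT2G41730, AT4G16240 and AT2G07140 are of the type whose probes can match other sequences, so their signal may include other transcripts.

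Some of the 84 genes lie close together in the genome. Within 5 gene positions of each other on a chromosome there were 5 pairs, involving 9 genes. JAL22 and JAL23 on chromosome 2 are separated by AT2G39320, which had a gap of −0.22 and so did not meet the choice. AT4G12490 and AT4G12500 on chromosome 4 have 1 annotated gene between them, for which no named probe set was measured. Between ATPMEPCRB and AT4G02360, also on chromosome 4, lie AT4G02340 and AT4G02350, with gaps of 0.27 and −0.07. On chromosome 3, AT3G15650, AT3G15670 and AT3G15720 lie in 1 stretch, although they encode a hydrolase, a late embryogenesis abundant protein and a polygalacturonase, and the 3 measured genes between AT3G15670 and AT3G15720 had gaps of −0.28 to 0.08. No measured gene between the paired ones had a gap of 1. By chromosome the 84 genes numbered 15, 21, 13, 14 and 21 on chromosomes 1 to 5.

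Between arrays of 1 genotype, the 84 genes had a median distance of 0.19 in wild type and 0.20 in css1, against 0.12 and 0.0966 over all 13367 probe sets. The widest distances were those of M17, AT4G36700, AT4G12490, AT2G40435 and GILT, from 0.79 to 1.20. The css1 replicate 2 value was the higher css1 value for 55 of the 84 genes (65.5%), against 43.4% of all probe sets. Wild type replicate 1 was the higher wild-type array for 58 genes (69.0%), against 55.4%. The genes thus leaned to 1 array within each genotype, and whether this reflects the seedlings or the arrays was not tested.

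The edge of the choice was narrow. The 5 genes just inside it, AT4G22212, AT5G23840, AT3G51660, AT2G27080 and AT5G58570, had gaps of 1.0001 to 1.0148. The 5 just outside it, AT2G38240, CHI, AT1G52100, AT1G59930 and AT3G04000, had gaps of 0.9973 to 0.9990 and differences of means of 1.05 to 1.55. That of AT2G38240, 1.05, was below the smallest difference among the 84, 1.08. Those of CHI, AT1G52100, AT1G59930 and AT3G04000 lay within the range of the 84. AT1G52100 had 7.04 and 7.73 in wild type and 9.14 and 8.73 in css1, so its arrays lay apart within both genotypes.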

How the data were processed

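The deposited values are log2 signals that the authors computed with RMA, per the submitters' processing notes, whose version is not stated. They were used as deposited, after 64 Affymetrix control probe sets were removed. Probe sets were named from the platform annotation and joined by gene ID to the RefSeq gene table. Probe sets listed under several genes, or not listed, were not named. HSP23.5, a name to be left out, was read as AT5G51440. Members and lists were chosen with earlier results of these data known. Per gene, the gap, genotype means, SDs and folds (2 to the power of the mean difference) were computed. A moderated linear model with genotype alone (limma 3.58.1, R 4.3.3, two-sided) was fitted over 22746 probe sets and Benjamini-Hochberg adjusted, and was checked on simulated data. It supplied the background and the calls of family loci that were not members. Each locus used its brightest probe set. Named were the 20 members with the largest gap, members by role, and those at the edge of the choice or with the widest spread. Families were found by words in symbols and synonyms, since the gene table used holds no descriptions. Each family count thus covers loci named in this way and may fall short of the whole family. Fits that leave out an array assume that the remaining one of its genotype varies like the other genotype. Promoter and protein sequences were not analysed here. The correlation of deviations between same-numbered arrays was −0.00605 over probe sets.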

Additional observations from a re-analysis of the deposited data

Results flagged for a closer look

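Of the 8730 probe sets that the annotation does not list, 123 had a gap of at least 1 log2 unit with css1 higher, the largest being 5.51. They are outside the 84 genes because the annotation names no gene for them, and were singled out as a signal in data that the comparisons above do not use. Of 503 probe sets with several genes, 10 had such a gap.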

How the results depend on the processing

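The number of genes chosen was 84 at a gap of at least 1, 148 at 0.8 and 30 at 1.5, and 146 when only the difference of means had to reach 1. Leaving out each array gave 97 to 140, always including the 84, as fewer values must then clear the gap. Median centring gave 97 including all 84, and a second quantile normalization gave 90 including 82. With AT5G51440 kept, an alternative chosen after seeing the data, there were 85. The largest shift of a difference among the 20 genes with the largest gap was 0.45, on leaving out an array, and 0.0405 under another scaling. Leaving out an array could not change a sign, since the choice puts every css1 value above every wild-type value. The 3559 calls over all probe sets became 773 at an adjusted p under 0.01, 560 to 3079 without each array, and 1264 with the replicate number as a block. The labels do not say that the numbers mark a shared batch. Under this block, the calls of TBL34, GSTU22 and SAG29 were lost (adjusted p = 0.0737, 0.0508 and 0.0586). Calls among the 4 jacalin-related genes, members included, were 2 to 4 without each array, and among the 24 trichome birefringence-like genes 1 to 5, with 2 at an adjusted p under 0.01. Both family counts include genes chosen for being higher on the same arrays: JAL22 and JAL23 in one, TBL26 and TBL37 in the other. The counts are thus no test of either family. The loci outside the 84, described above, are no full test either, since any locus with a gap of at least 1 had been taken out of them. The promoter motif alternative was not run, since no promoter sequences were used here. With 2 arrays per genotype, precision is limited by their number and, for the 12 genes low in wild type, by signal near the floor.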
